A study of Mus musculus with 12 samples.

Results

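The 10 genes described here encode enzymes and binding proteins that handle reactive oxygen species, electrophiles, heme and metals in the cell: Sod1, Sod2, Cat, Gpx1, Gpx4, Gclm, Hmox1, Nqo1, Txnip and Mt1. They were taken by symbol from a table of 52962 gene identifiers, and all 10 were found and passed the filter on low counts that left 15598 genes for testing. RNA was sequenced from islet cells of NOD females, which are prone to autoimmune diabetes after immune cells enter the islets. Cells were divided by their endogenous fluorescence into a β-cell fraction and a non-β-cell fraction, at 4 and at 8 weeks of age. The 12 samples therefore form 4 groups of 3, all labelled NOD, and the labels name no other strain, genotype or treatment. Per the study's methods, mouse islets were kept in culture overnight, dispersed with trypsin and sorted with CD45-positive cells excluded, and each sample was a pool of 3 mice. The labels give no batch or day of preparation.

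Superoxide, formed as a by-product of respiration, is converted to hydrogen peroxide by superoxide dismutases, and catalase, glutathione peroxidases and peroxiredoxins then remove the peroxide. Glutathione and thioredoxin supply the reducing power, which is drawn from NADPH. The transcription factor NRF2, held in check by KEAP1, drives many of these genes through antioxidant response elements, while metallothioneins are switched on by metals through metal response elements. β-cells are known for low catalase and glutathione peroxidase relative to liver, and for a strong response of Txnip to glucose.

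Short windows of genome are shown because Mt1 and Txnip separated the fractions more widely than the other 8 genes did. Each is the 250 bases before the RefSeq transcription start on build GRCm38.p6, 5′ to 3′ on the plus strand, at chr8:94178839-94179088 for Mt1 and chr3:96557707-96557956 for Txnip. Capitals mark the letters TGCNCNC in Mt1, a loose form of the metal response element core. In Txnip they mark the letters CACGAG, a part of a carbohydrate response element.
Mt1: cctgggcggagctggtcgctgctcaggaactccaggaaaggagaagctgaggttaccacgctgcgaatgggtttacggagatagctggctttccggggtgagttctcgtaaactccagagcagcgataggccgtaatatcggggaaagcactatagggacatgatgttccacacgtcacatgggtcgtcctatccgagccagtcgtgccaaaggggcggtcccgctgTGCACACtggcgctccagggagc
Txnip: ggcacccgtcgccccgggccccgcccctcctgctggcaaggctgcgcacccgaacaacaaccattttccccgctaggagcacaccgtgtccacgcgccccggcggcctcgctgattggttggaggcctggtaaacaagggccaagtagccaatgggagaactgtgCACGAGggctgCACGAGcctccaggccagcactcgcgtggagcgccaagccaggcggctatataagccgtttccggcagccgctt
Windows from 250 bases before to 50 after the start were given for 9 of the 10 genes, and for Gpx4 there were 4. Hmox1 had none. Both strands were searched. TGCNCNC was found in the Mt1 window 23 bases before the start and again at positions 3 and 21 after it, but these letters occur in 51% of 32851 windows of the same length. CACGAG, a motif chosen after the sequence had been seen, lay 85 and 74 bases before the Txnip start, and 6.47% of windows held it. The antioxidant response element core TGACNNNGC was present on the reverse strand in the Sod1 and Gclm windows and in 12.4% of all windows. Gclm also held CACGAG, and TGCNCNC was found in the Gclm, Nqo1 and Txnip windows and in 3 of the 4 of Gpx4. The palindromic E-box CACGTG, found in 7.15% of windows, was in none of those of the 9 genes. A match describes letters in a window and is not a binding site.

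The libraries held 13755106 to 27040652 estimated counts. Values are given as TMM-scaled CPM (counts relative to library size), which are not divided by transcript length, so levels are compared between samples and not between genes. Fold changes are log2 differences with their standard errors, and a gene is called where the adjusted p of limma-voom, over all tested genes, is under 0.05. The p-values measure the spread between these pools, and the main model did not pair samples by number. The hormone genes followed the labels of the fractions. The β-cell mean of Ins2, an insulin gene, was 5799% of the non-β mean at 4 weeks and 4088% at 8 weeks, and that of Gcg, the glucagon gene of α-cells, was 6.36% and 1.62%. Ptprc, which encodes CD45, did not exceed a group mean of 0.454 CPM. In bulk RNA, fewer cells of a type and less RNA per cell cannot be told apart. The 4-week samples numbered 3 stood apart from the others of their groups. The β-cell one was the highest of its group in 8 of the 10 genes and the non-β one in 7 of 10. Non-β sample 3 of 8 weeks was the highest in 6 of 10, and the share over all genes was not counted. In the β-cell one of 4 weeks, the median deviation from the group mean was 0.16 on the log2 scale for genes with transcripts under 792.2 bases. For those over 2480 bases it was -0.20, and in the non-β one these were 0.09 and -0.14. β-cell sample 2 of 4 weeks had -0.09 and 0.12. Values without the 4-week samples numbered 3 are given where they change a call.

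β-cells and non-β-cells differed in most of the 10 genes. At 4 weeks 7 of 10 were called (10 of 10 when samples were paired by number), 6 higher in β-cells (Sod2, Cat, Gpx4, Hmox1, Nqo1 and Mt1) and 1 lower (Txnip). Of all tested genes 48.5% were called in that comparison, 24.9% higher and 23.7% lower. With pairing by number, 9158 of the 15598 tested genes were called, against 7570 without it. At 8 weeks 7 of 10 were again called, 5 of them higher (Sod2, Cat, Gclm, Hmox1 and Mt1) and 2 lower (Gpx1 and Txnip), against 49.2% of all genes, 23.6% higher and 25.6% lower. The median log2 difference of the 10 genes was 0.53 at 4 weeks and 0.40 at 8 weeks, and that of all tested genes was -0.00 and 0.01. Fewer were called with age. In β-cells 2 of 10 were called, Txnip higher and Hmox1 lower, against 17.9% of all genes, 8.59% higher and 9.35% lower. In non-β-cells 4 of 10 were called, Gpx1, Nqo1 and Txnip higher and Hmox1 lower, against 16.4% of all genes, 11.6% higher and 4.8% lower. The interaction, which is the β-cell age difference less the non-β one, called 0 of 10 genes and 5.13% of all genes. Of the 10, Gpx1, Txnip and Nqo1 had an unadjusted p under 0.05 for the interaction (0.00297, 0.00978 and 0.0318), while 0 were called by edgeR and 2 (Gpx1 and Txnip) by DESeq2.

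**Figure D1:**
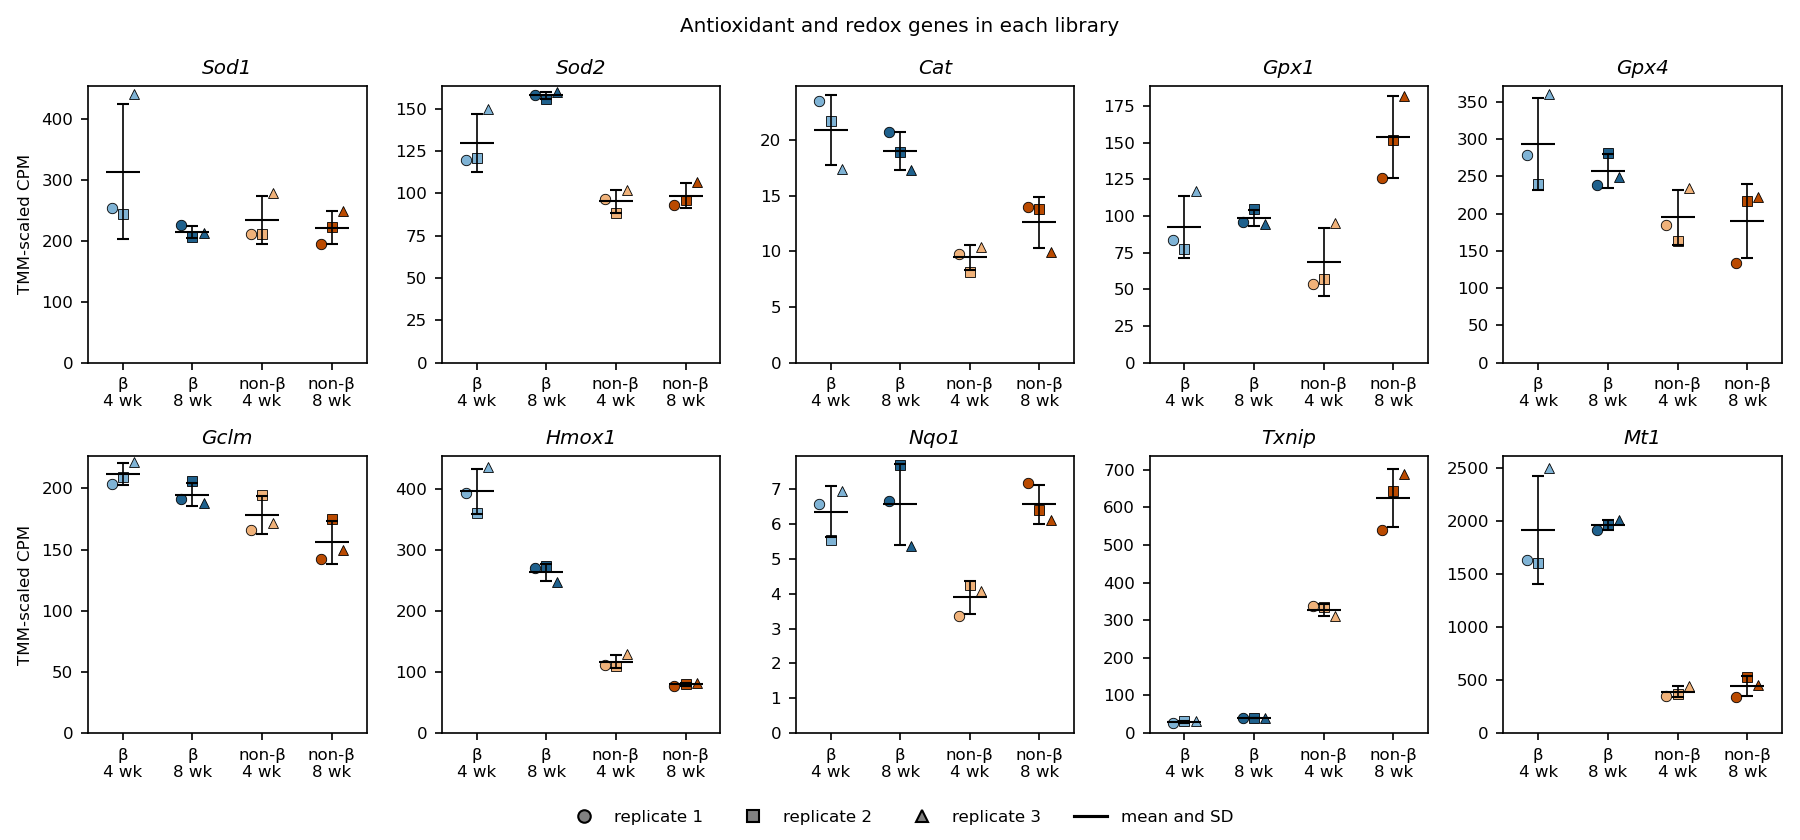
TMM-scaled CPM (linear axis from 0, a separate scale for each gene) of the 10 genes in the 12 samples; points are samples, shaped by replicate number, and bars are the group mean and SD (n = 3). Mt1 and Hmox1 of the β-cell samples lie above all non-β samples, Txnip of the β-cell samples lies below them, and the 4-week samples numbered 3 are the highest of their groups for Sod1, Gpx1, Gpx4 and Mt1.

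Sod1 encodes the copper and zinc superoxide dismutase of the cytosol and Sod2 the manganese enzyme of mitochondria. Sod1 (chromosome 16, 90220754 to 90226329, plus strand, GRCm38; it overlaps Scaf4 on the other strand) measured 254, 243 and 441 CPM in the 4-week β-cell samples and 225, 206 and 212 in the 8-week ones. Among non-β samples the values were 210, 211 and 278 CPM at 4 weeks and 194, 222 and 249 at 8 weeks. The β-cell ranges of the ages did not overlap, and sample 3 at 4 weeks stood far above the rest. The fitted age difference in β-cells was -0.49 ± 0.20 (SE; adjusted p = 0.106), and without that sample it was -0.22 (adjusted p = 0.309). DESeq2 called it (-0.55, adjusted p = 0.0397). The difference between β-cells and non-β-cells at 4 weeks was 0.38 ± 0.20 (adjusted p = 0.124), and 0.39 with an adjusted p of 0.00489 in the fit that paired samples by number.

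Sod2 (chromosome 17, 13006846 to 13040063, plus strand) measured 120, 121 and 150 CPM in the 4-week β-cell samples and 158, 156 and 160 in the 8-week ones. The non-β fraction gave 96.9, 88.2 and 102 CPM at 4 weeks and 92.9, 96.4 and 107 at 8 weeks. All 6 β-cell samples lay above all 6 non-β samples. The difference between the fractions was 0.44 ± 0.11 at 4 weeks (adjusted p = 0.00483) and 0.68 ± 0.11 at 8 weeks (adjusted p = 0.000202). The age difference in β-cells, 0.29 ± 0.11, missed the threshold (adjusted p = 0.0831) although the ages did not overlap. Without β-cell sample 3 at 4 weeks it was 0.39 and passed (adjusted p = 0.0113). In non-β-cells the age difference was 0.05 ± 0.11 (adjusted p = 0.83).

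The other genes of this step were the extracellular dismutase Sod3 and Ccs, the copper chaperone of SOD1. Of the 4 genes, 1 (Sod3) was called with age in each fraction, or 25% against 17.9% of all genes in β-cells and 16.4% in the other fraction. Sod3 was chosen for mention after its values were seen because its level falls under that of the naming rule. Its rounded counts in β-cells were 1, 0 and 0 at 4 weeks and 27, 18 and 9 at 8 weeks. Its rounded non-β counts were 32, 35 and 12 at 4 weeks and 175, 158 and 240 at 8 weeks. Sod3 was higher at 8 weeks in the β-cell fraction (adjusted p = 0.0473) and in the other (adjusted p = 0.000407), with no overlap in either. Its high 8-week non-β samples, at 7.57, 11.8 and 12.3 CPM, were enough to pass it through the filter on low counts. Its p-values are therefore given as description only. Summed levels of 7 mesenchymal markers moved with Sod3, from 3.77 to 14.8 CPM up to 25.4 to 52.5 in β-cells and from 103 to 296 up to 663 to 1059 in non-β-cells. The sum of 7 acinar markers was also higher at 8 weeks without overlap in both fractions, as was that of 6 endothelial markers in the non-β one (values beside Gpx1). Their part in the result was not tested.

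Catalase, the peroxisomal enzyme that splits hydrogen peroxide, was measured at 23.5, 21.7 and 17.4 CPM in β-cells at 4 weeks and 20.7, 18.9 and 17.3 at 8 weeks (Cat, chromosome 2, 103453849 to 103485160, minus strand). The non-β samples had 9.75, 8.17 and 10.4 CPM at 4 weeks and 14, 13.8 and 9.92 at 8 weeks. Every β-cell sample was above every non-β sample. The β-cell level was 2.19-fold that of non-β-cells at 4 weeks (log2 difference 1.13 ± 0.18, adjusted p = 0.000241) and 1.52-fold at 8 weeks (0.61 ± 0.18, adjusted p = 0.0121). The call at 8 weeks was lost without non-β sample 3 (0.43, adjusted p = 0.0771). The fitted age differences were -0.13 ± 0.15 for β-cells and 0.39 ± 0.20 for the non-β fraction, neither past the threshold (adjusted p = 0.599 and 0.224).

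Gpx1 encodes the glutathione peroxidase of the cytosol and mitochondria. In non-β-cells Gpx1 (chromosome 9, 108338903 to 108340343, plus strand) rose from 53.3, 56.8 and 95.1 CPM at 4 weeks to 126, 152 and 182 at 8 weeks. In β-cells it measured 83.5, 77.5 and 117 CPM at 4 weeks and 96.3, 105 and 94.9 at 8 weeks. The non-β ages did not overlap, whereas the β-cell values at 8 weeks lay inside the range at 4 weeks. The rise in non-β-cells was 2.31-fold (1.21 ± 0.21, adjusted p = 0.00154), and it was called in all 6 fits that left out 1 of the compared samples (adjusted p 0.000168 to 0.0139). In β-cells the difference was 0.12 ± 0.21 (adjusted p = 0.746).

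The Gpx1 means of the fractions stood in opposite order at the ages, and the difference between the age changes missed the threshold. At 4 weeks the β-cell mean was 136% of the non-β mean, with overlap between the groups (0.47 ± 0.21, adjusted p = 0.0859). This passed the threshold when samples were paired by number (0.46, adjusted p = 0.00304) and without non-β sample 3 (0.73, adjusted p = 0.00568). At 8 weeks the β-cell mean was 64.4% of the non-β mean with no overlap (-0.62 ± 0.21, adjusted p = 0.025), a call lost in 4 of the 6 fits that left out a sample, namely those without β-cell sample 1 or 3 or non-β sample 2 or 3 (adjusted p 0.0545 to 0.0994). The interaction of -1.09 ± 0.30 had an adjusted p of 0.0549. It was 0.00652 without non-β sample 3 of 4 weeks, 0.0455 without non-β sample 1 of 8 weeks, 0.011 by DESeq2 and 0.000374 with samples paired by number (-1.08), a pairing found at 4 weeks only.

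Among non-β-cells the marker sums of several cell types were higher at 8 weeks, as Gpx1 was, while those of α-cells and PP cells overlapped between the ages. The sum of 6 endothelial markers was 46.4 to 82.9 CPM at 4 weeks and 346 to 947 at 8 weeks, and all 6 were measured above 0. The sum of the 7 mesenchymal markers was 103 to 296 and 663 to 1059 CPM, with all 7 above 0, and that of 7 acinar markers was 1.96 to 50.7 and 148 to 721 CPM. The δ-cell sum was 5287 to 7998 and 8181 to 11659 CPM, and the duct sum 285 to 367 and 393 to 450. For β-cell markers in this fraction it was 2877 to 4006 and 4926 to 5840 CPM, and for leukocyte markers 8.71 to 13.2 and 15 to 20.7. These sums stand beside every age difference of the non-β fraction, and their part in the change of Gpx1, Nqo1, Txnip or any other gene there was not tested. In the β-cell fraction the acinar sum was 84.3 to 179 CPM at 4 weeks and 413 to 867 at 8 weeks. The sum of 8 β-cell markers there was 46322 to 81304 CPM at 4 weeks and 106957 to 112521 at 8 weeks. That of 7 α-cell markers was 8113 to 11961 and 4622 to 5487 CPM. The part of these sums in the β-cell age differences, those of Hmox1 and Txnip among them, was not tested either.

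Gpx4, the peroxidase that reduces lipid hydroperoxides in membranes (chromosome 10, 80047166 to 80056439, plus strand), measured 279, 240 and 360 CPM in the 4-week β-cell samples and 239, 282 and 249 in the 8-week ones. Among non-β samples the values were 185, 163 and 235 CPM and 133, 217 and 222. The fractions did not overlap at either age, by a narrow margin. Only the difference at 4 weeks was called (0.59 ± 0.20, adjusted p = 0.0305), and it was lost without β-cell sample 1 or 3 or non-β sample 1 or 2 (adjusted p 0.0621 to 0.113). At 8 weeks the difference was 0.47 ± 0.20 (adjusted p = 0.0753). With age the differences were -0.17 ± 0.20 and -0.05 ± 0.20, with adjusted p of 0.605 and 0.901.

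Of 13 tested genes of catalase, glutathione peroxidases and peroxiredoxins, 1 was called with age in β-cells (Gpx3, lower) and 3 in the non-β fraction (Gpx1, Gpx3 and Gpx8, all higher), or 7.69% and 23.1% against 17.9% and 16.4% of all genes. Gpx3 encodes the secreted plasma peroxidase. It measured 180, 186 and 258 CPM in the 4-week β-cell samples and 148, 139 and 147 in the 8-week ones, while in non-β-cells it measured 2311, 2280 and 2820 CPM and 2809, 3764 and 4088. It was therefore lower with age in β-cells without overlap and higher in non-β-cells, where the ages overlapped. The fitted differences were -0.51 ± 0.16 (adjusted p = 0.0417) and 0.51 ± 0.16 (adjusted p = 0.0474), and the interaction was -1.02 ± 0.23 (adjusted p = 0.02). The call in each fraction was lost in 4 of 6 fits that left out a sample (highest adjusted p 0.135 and 0.171) and the interaction in 6 of 12 (highest 0.0613). In the β-cell samples Gcg, which is made by α-cells, was 6.36% of the non-β mean at 4 weeks and 1.62% at 8 weeks, and the part of α-cell RNA was not tested. Between the fractions 8 of the 13 genes were called at 4 weeks, with 5 of them higher on the β side and 3 lower. At 8 weeks 9 were called, with 4 higher and 5 lower. The shares were 61.5% and 69.2% against 48.5% and 49.2% of all genes.

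Glutathione is built by glutamate cysteine ligase, whose regulatory subunit is encoded by Gclm. Gclm (chromosome 3, 122245557 to 122270732, plus strand; overlapped by Gm6061 on the same strand and Gm17494 on the other) measured 204, 209 and 222 CPM in the 4-week β-cell samples and 191, 206 and 188 in the 8-week ones. Non-β-cells had 166, 195 and 172 CPM at 4 weeks and 142, 175 and 150 at 8 weeks. The fractions did not overlap at either age but were close. The difference was 0.26 ± 0.10 at 4 weeks, just outside the threshold (adjusted p = 0.0573; 0.014 when paired by number), and 0.33 ± 0.10 at 8 weeks (adjusted p = 0.0184). The call at 8 weeks was lost without β-cell sample 2 or non-β sample 1 or 3 (adjusted p 0.0598 to 0.0751). Age differences were -0.12 ± 0.10 and -0.19 ± 0.10 (adjusted p = 0.466 and 0.248). The catalytic subunit gene Gclc, a list member whose values are given here after they were seen, showed no call in any comparison (age differences 0.16 ± 0.14 in β-cells and 0.12 ± 0.14 in the non-β fraction).

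Of 25 tested genes of glutathione synthesis, recycling and transfer, 5 were called with age in β-cells, 2 higher and 3 lower, and 5 in non-β-cells, 4 higher and 1 lower. That is 20% in each fraction, near the 17.9% and 16.4% of all genes. Gsto1, an omega class transferase that also reduces dehydroascorbate, fell in β-cells from 152, 145 and 185 CPM to 91.9, 105 and 91.1 (-0.74 ± 0.12, adjusted p = 0.00117). The mu class transferase Gstm1 also fell, by 0.51 on the log2 scale (adjusted p = 0.0133; 0.0658 without β-cell sample 3 of 8 weeks), while its neighbour in sequence Gstm2 rose from 13.6, 10.4 and 15.9 CPM to 21.6, 23.8 and 19.1 (0.72 ± 0.16, adjusted p = 0.00706). Reads can be divided between such similar transcripts, so values of the mu class genes are uncertain in how they split. Gstt2 was -0.56 ± 0.18 (adjusted p = 0.0438), a call held in 1 of 6 fits with a sample left out. In non-β-cells Slc3a2, the heavy chain of amino acid transporters that include the cystine carrier, fell from 416, 404 and 495 CPM to 263, 313 and 313 (-0.56 ± 0.12, adjusted p = 0.00431), and Gstz1, a zeta class transferase, was 0.31 ± 0.09 higher (adjusted p = 0.0315; called in 1 of 6 fits with a sample left out).

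Hmox1 encodes the inducible heme oxygenase, which breaks heme into biliverdin, carbon monoxide and iron. Hmox1 (chromosome 8, 75093621 to 75100589, plus strand) measured 393, 360 and 435 CPM in the 4-week β-cell samples and 270, 273 and 247 in the 8-week ones. The non-β fraction gave 111, 110 and 129 CPM at 4 weeks and 77.1, 81.1 and 81.8 at 8 weeks. None of the 4 groups overlapped, with β-cells at 4 weeks highest and non-β-cells at 8 weeks lowest. The fall with age was 1.5-fold in β-cells (-0.59 ± 0.10, adjusted p = 0.00165) and 1.46-fold in the non-β fraction (-0.54 ± 0.10, adjusted p = 0.00278). Both calls were kept in all 6 fits that left out a sample (adjusted p 0.00253 to 0.012 and 0.00441 to 0.0124). The difference between these falls was -0.04 with a 95% interval of -0.36 to 0.27. β-cells held 3.39-fold the non-β level at 4 weeks (1.76 ± 0.10, adjusted p = 2.63e-08) and 3.29-fold at 8 weeks (1.72 ± 0.10, adjusted p = 3.33e-08).

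Nqo1, the quinone reductase often used as a readout of NRF2, was the least counted of the 10 genes at 3.37 to 7.69 CPM. Nqo1 (chromosome 8, 107388225 to 107403206, minus strand) measured 6.57, 5.55 and 6.97 CPM in β-cells at 4 weeks and 6.66, 7.69 and 5.38 at 8 weeks. Its non-β levels were 3.37, 4.26 and 4.09 CPM at 4 weeks and 7.19, 6.42 and 6.11 at 8 weeks. The non-β samples at 4 weeks stood below all others. They rose 1.72-fold (0.78 ± 0.23, adjusted p = 0.035), a call lost in all 6 fits that left out a sample (adjusted p 0.0541 to 0.148). The difference between the fractions was 0.71 ± 0.23 at 4 weeks (adjusted p = 0.0204), lost without β-cell sample 1 or 3 or non-β sample 1 (adjusted p 0.054 to 0.0807), and -0.02 ± 0.20 at 8 weeks (adjusted p = 0.942). The interaction was -0.73 ± 0.30 (adjusted p = 0.209). The endothelial, mesenchymal and acinar sums given beside Gpx1 moved with Nqo1 too, and their part was not tested.

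The list of NRF2 regulators and of heme, quinone and NADPH enzymes had 22 tested genes. In β-cells 5 were called with age, 1 higher and 4 lower, and in non-β-cells 6, 2 higher and 4 lower, or 22.7% and 27.3% against 17.9% and 16.4% of all genes. Nfe2l2, which encodes NRF2 and is named here after its values were seen, was at 49.5 to 56 CPM in the β-cell samples and 56.6 to 63.5 in the non-β samples, with age differences of -0.09 ± 0.09 and 0.01 ± 0.09. It was called only between the fractions at 8 weeks, at -0.28 ± 0.09 (adjusted p = 0.0219). Hmox2, the constitutive heme oxygenase, was 128, 119 and 185 CPM in β-cells at 4 weeks and 91.5, 97.4 and 94.3 at 8 weeks (-0.58 ± 0.19, adjusted p = 0.045), a call held in 1 of 6 fits with a sample left out. Genes of NADPH supply went in different directions in β-cells. G6pdx, which opens the pentose phosphate pathway, rose from 50.9, 50.4 and 45.6 CPM to 71.7, 73.7 and 78.8 (0.61 ± 0.11, adjusted p = 0.00282). Idh1, the cytosolic isocitrate dehydrogenase, was -0.41 ± 0.11 in β-cells (adjusted p = 0.0255; called in 3 of 6 fits with a sample left out). In the non-β fraction it was -0.66 ± 0.12 (adjusted p = 0.00224).

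In non-β-cells the negative regulator Keap1 was -0.48 ± 0.13 (adjusted p = 0.0274) and Nfe2l1, a relative of NRF2 that drives proteasome genes, fell from 482, 458 and 499 CPM to 297, 314 and 316 (-0.63 ± 0.09, adjusted p = 0.000421). Osgin1, an oxidative stress gene, rose from 16.9, 15 and 18.4 CPM to 31.8, 31 and 26.3 (0.82 ± 0.13, adjusted p = 0.000722). Mafk, a small partner protein of NRF2, was -0.30 ± 0.09 with age in β-cells (adjusted p = 0.0367) and differed between the fractions in its age change (-0.53 ± 0.13, adjusted p = 0.0281). The Keap1 call was lost in 3 of 6 fits with a sample left out, the β-cell Mafk call in 5 of 6 and the Mafk interaction in 6 of 12.

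**Figure D2:**
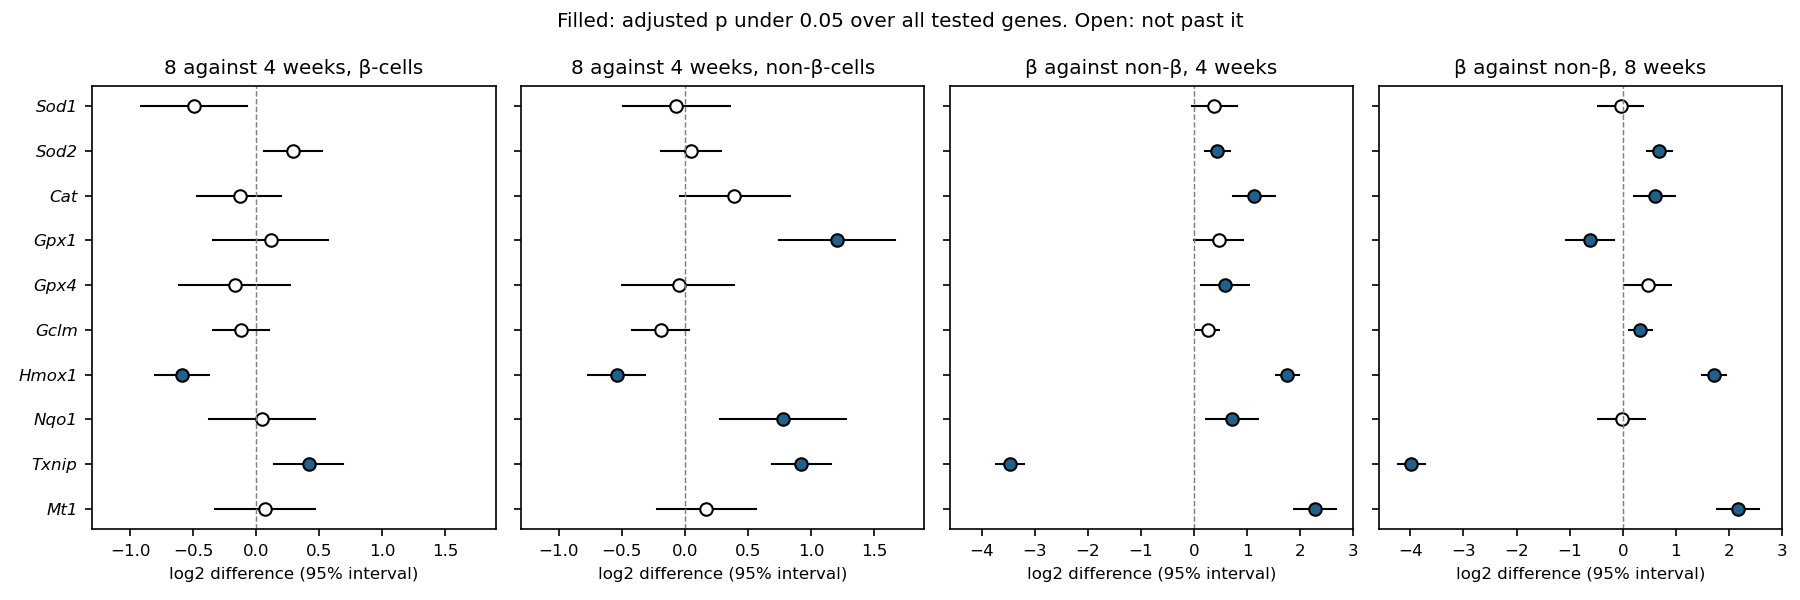
Fitted log2 differences of the 10 genes with 95% intervals in the age comparisons (8 against 4 weeks, a positive value being higher at 8 weeks) and the comparisons of fractions (a positive value being higher in β-cells); the first and last pairs of panels have different horizontal scales. Filled points passed an adjusted p of 0.05 over all tested genes; Txnip lies at -3.47 and -3.98 and Mt1 at 2.28 and 2.18 between the fractions, and Hmox1 lies at -0.59 and -0.54 with age.

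Txnip, which binds and inhibits thioredoxin and restrains glucose uptake, was the one gene of the 10 called lower in β-cells at both ages. In β-cells Txnip (chromosome 3, 96557957 to 96561883, plus strand; Gm15441 overlaps it on the other strand) measured 25.5, 32.3 and 30.9 CPM at 4 weeks and 40.1, 38.9 and 39.3 at 8 weeks. The non-β samples had 338, 336 and 310 CPM at 4 weeks and 540, 645 and 690 at 8 weeks. None of the 4 groups overlapped, and 8 weeks was the higher age in both fractions. The non-β level was 11.1-fold that of β-cells at 4 weeks (β minus non-β -3.47 ± 0.12, adjusted p = 3.84e-10) and 15.8-fold at 8 weeks (-3.98 ± 0.12, adjusted p = 7.66e-11).

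Txnip rose 1.9-fold with age in non-β-cells (0.92 ± 0.11, adjusted p = 7.44e-05), a call kept in all 6 fits with a sample left out (adjusted p 5.66e-05 to 0.000905). The endothelial, mesenchymal and acinar sums given beside Gpx1 were higher in the same 8-week samples, and their part was not tested. The rise in β-cells was 1.33-fold (0.42 ± 0.13, adjusted p = 0.0386), and it was lost whichever of the 6 β-cell samples was left out (0.30 to 0.46, adjusted p 0.053 to 0.154). The interaction was -0.51 ± 0.17 (adjusted p = 0.113; 0.0198 by DESeq2, 0.0331 with samples paired by number and 0.0411 without non-β sample 1 of 8 weeks).

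The β-cell mean of Txnip was 9.01% of the non-β mean at 4 weeks and 6.31% at 8 weeks. For genes of α-cells the same share was 6.36% and 1.62% for Gcg, 9.36% and 4.54% for Ttr and 5.33% and 3.84% for Irx2. The part of α-cell RNA in the β-cell values of Txnip was not tested.

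Txnip belongs to the α-arrestins, and of 12 tested genes of this family and the thioredoxin system 4 were called with age in each fraction, all higher and Txnip among them, or 33.3% against 17.9% of all genes in β-cells and 16.4% in the other fraction. In β-cells Arrdc3 rose most, from 22.3, 24.9 and 18.9 CPM to 52.9, 46.4 and 47.3 (1.15 ± 0.15, adjusted p = 0.000272), and Arrdc1 was 0.59 ± 0.17 higher (adjusted p = 0.0296; called in 1 of 6 fits with a sample left out). Txnrd1, the cytosolic thioredoxin reductase, rose from 224, 225 and 198 CPM to 307, 311 and 300 (0.51 ± 0.09, adjusted p = 0.00143). In non-β-cells Arrdc3 was 0.75 ± 0.14 higher (adjusted p = 0.00224) and Txnrd1 0.32 ± 0.09 higher (adjusted p = 0.0207; called in 1 of 6 fits with a sample left out).

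Arrdc4, another α-arrestin gene known to respond to glucose, differed between the fractions. It rose in non-β-cells from 38.7, 44 and 39.6 CPM to 67.4, 62.1 and 66.7 (0.69 ± 0.11, adjusted p = 0.000577), while in β-cells it measured 21.5, 21.6 and 23.1 CPM at 4 weeks and 20.1, 15.3 and 17 at 8 weeks (-0.35 ± 0.13, adjusted p = 0.0753). The interaction was -1.04 ± 0.17 (adjusted p = 0.00291) and was called in all 12 fits with a sample left out. Between the fractions the tested arrestins Arrdc1, Arrdc2, Arrdc3 and Arrdc4 were, like Txnip, lower in β-cells at both ages, with log2 differences of -1.09 to -0.88 at 4 weeks and -1.92 to -0.58 at 8 weeks.

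**Figure D3:**
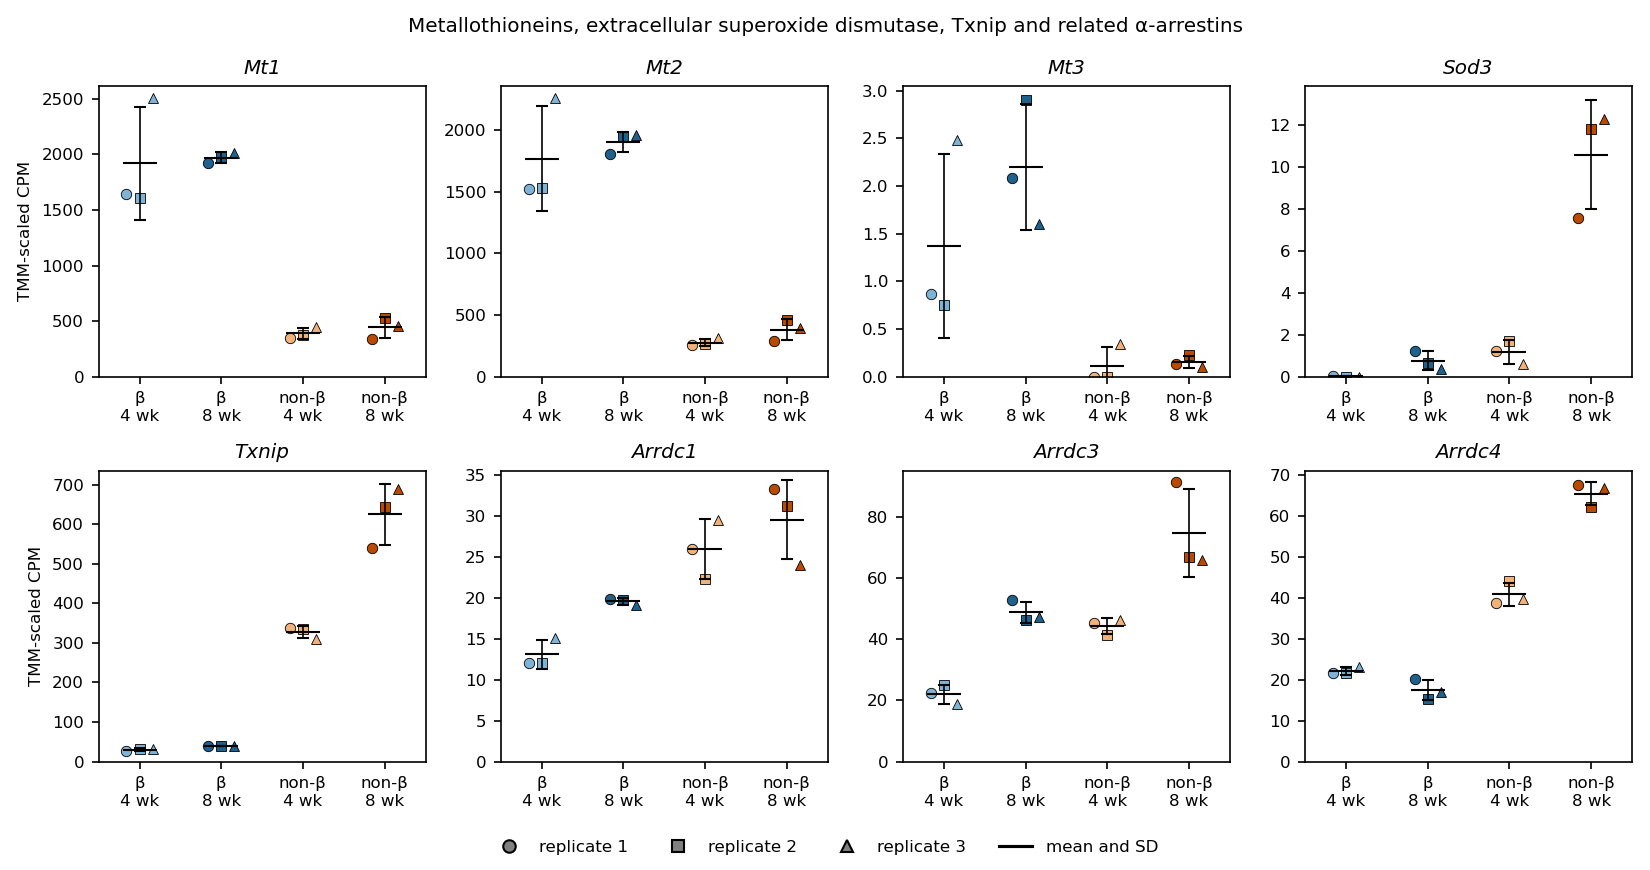
TMM-scaled CPM (linear axes from 0, a separate scale for each gene) in the 12 samples for Mt1, Mt2, Mt3 and Sod3 (top) and for Txnip, Arrdc1, Arrdc3 and Arrdc4 (bottom); points are samples shaped by replicate number and bars are the group mean and SD (n = 3). Mt1 and Mt2 separate the fractions alike, and Arrdc4 is higher at 8 weeks in the non-β samples.

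Mt1 encodes a metallothionein, a small cysteine-rich protein that binds zinc and copper and reacts with oxidants. Mt1 (chromosome 8, 94179082 to 94180327, plus strand) measured 1639, 1609 and 2505 CPM in the 4-week β-cell samples and 1918, 1978 and 2011 in the 8-week ones. Among non-β samples the values were 350, 373 and 446 CPM at 4 weeks and 342, 532 and 453 at 8 weeks. The lowest β-cell sample was thus above every non-β sample at either age, while the ages overlapped within each fraction. β-cells held 4.84-fold the non-β level at 4 weeks (2.28 ± 0.18, adjusted p = 5.7e-07) and 4.52-fold at 8 weeks (2.18 ± 0.18, adjusted p = 7.44e-07). Age gave 0.07 ± 0.19 in β-cells (95% interval -0.33 to 0.47) and 0.17 ± 0.18 in the non-β fraction (-0.22 to 0.56).

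The neighbouring gene Mt2, so similar in sequence that reads may be split between the pair, followed Mt1 closely. In β-cells it measured 1519, 1527 and 2257 CPM at 4 weeks and 1810, 1942 and 1958 at 8 weeks. Its non-β values were 256, 264 and 311 CPM and then 294, 457 and 394. The difference between the fractions was 2.65 ± 0.18 at 4 weeks and 2.34 ± 0.18 at 8 weeks (adjusted p = 8.9e-08 and 2.59e-07). Mt3, named after its values were seen, was low, at 0.753 to 2.9 CPM in β-cells and 0 to 0.345 in the non-β fraction. Of 8 tested genes of metallothioneins and zinc handling, 6 were called between the fractions at each age, 4 higher and 2 lower in β-cells, or 75% against 48.5% and 49.2% of all genes. With age 0 were called in the β-cell fraction (limma-voom, over all genes) and 1 in the other, or 0% and 12.5% against 17.9% and 16.4% of all genes. Slc30a1 and Slc30a8, zinc exporters of the plasma membrane and of insulin granules, had an unadjusted p under 0.05 in β-cells (0.0457 and 0.0363). The called gene was the zinc importer Slc39a14, which was 0.50 ± 0.14 higher (adjusted p = 0.0266; called in 2 of 6 fits with a sample left out).

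Enzymes that make superoxide, hydrogen peroxide or nitric oxide formed the last list. Of its 22 genes 11 passed the filter, and 4 were called with age in β-cells, 3 higher and 1 lower, and 5 in non-β-cells, all higher, or 36.4% and 45.5% against 17.9% and 16.4% of all genes. Xdh, xanthine dehydrogenase, which as an oxidase releases superoxide and hydrogen peroxide, rose in β-cells from 6.92, 6.54 and 4.91 CPM to 21.8, 21.3 and 21.5 (1.83 ± 0.20, adjusted p = 5.13e-05). It rose in non-β-cells from 5.43, 6.65 and 4.19 CPM to 19.3, 15.8 and 13.6 (1.60 ± 0.22, adjusted p = 0.000209). No sample of 4 weeks reached any sample of 8 weeks in either fraction. The acinar sums of both fractions and the endothelial and mesenchymal sums of the non-β one, given beside Gpx1, were higher at 8 weeks too, and their part in the Xdh values was not tested.

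Nos2, the inducible nitric oxide synthase, lies under the level of the naming rule and is given because its values drew attention. It measured 0.865, 1.35 and 0.229 CPM in β-cells at 4 weeks and 5.23, 8.1 and 7.18 at 8 weeks (adjusted p = 0.0169). The non-β fraction gave 0, 0 and 0.247 CPM at 4 weeks and 3.51, 7.62 and 11.7 at 8 weeks (adjusted p = 0.0238). Apart from the 1.35 CPM of β-cell sample 2, no 4-week sample was above 1 CPM. Nos2 thus passed the filter on low counts through the 8-week groups where it was high, and its p-values are given as description only. Gch1, which makes the cofactor of nitric oxide synthases, went the other way in β-cells, from 657, 643 and 798 CPM to 479, 527 and 510 (-0.46 ± 0.11, adjusted p = 0.0119; 0.0565 without β-cell sample 1 of 8 weeks). In non-β-cells Noxo1, an organiser of an NADPH oxidase, was 0.96 ± 0.20 higher (adjusted p = 0.00456), and in β-cells Maob, a mitochondrial amine oxidase, was 0.32 ± 0.10 higher (adjusted p = 0.0379; called in 1 of 6 fits with a sample left out). Of 13 leukocyte markers 2 passed the filter. The summed level of the 13 in β-cells was 51.7 to 53.6 CPM at 4 weeks and 70.3 to 77.6 at 8 weeks, without overlap, and came mostly from Cd68, at group means of 48.8 and 69.6 CPM. Cd68 had lower group means in the non-β fraction, 9.15 and 16.5 CPM, and Ptprc had means of 0.0132 and 0 CPM in the β-cell fraction. The part of leukocyte RNA in the β-cell values was not tested. Cybb, the oxidase subunit of phagocytes, reached at most 0.462 CPM. Other genes of the list did change, also named after their values were seen. Cyba, another oxidase subunit gene, had non-β means of 2.59 CPM at 4 weeks and 13 at 8 weeks (2.32 ± 0.31, adjusted p = 0.000183). Its β-cell means were 0.177 and 0.737 CPM (not called). Nos3 was also called in non-β-cells, with means of 1.52 and 11.6 CPM.

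**Figure D4:**
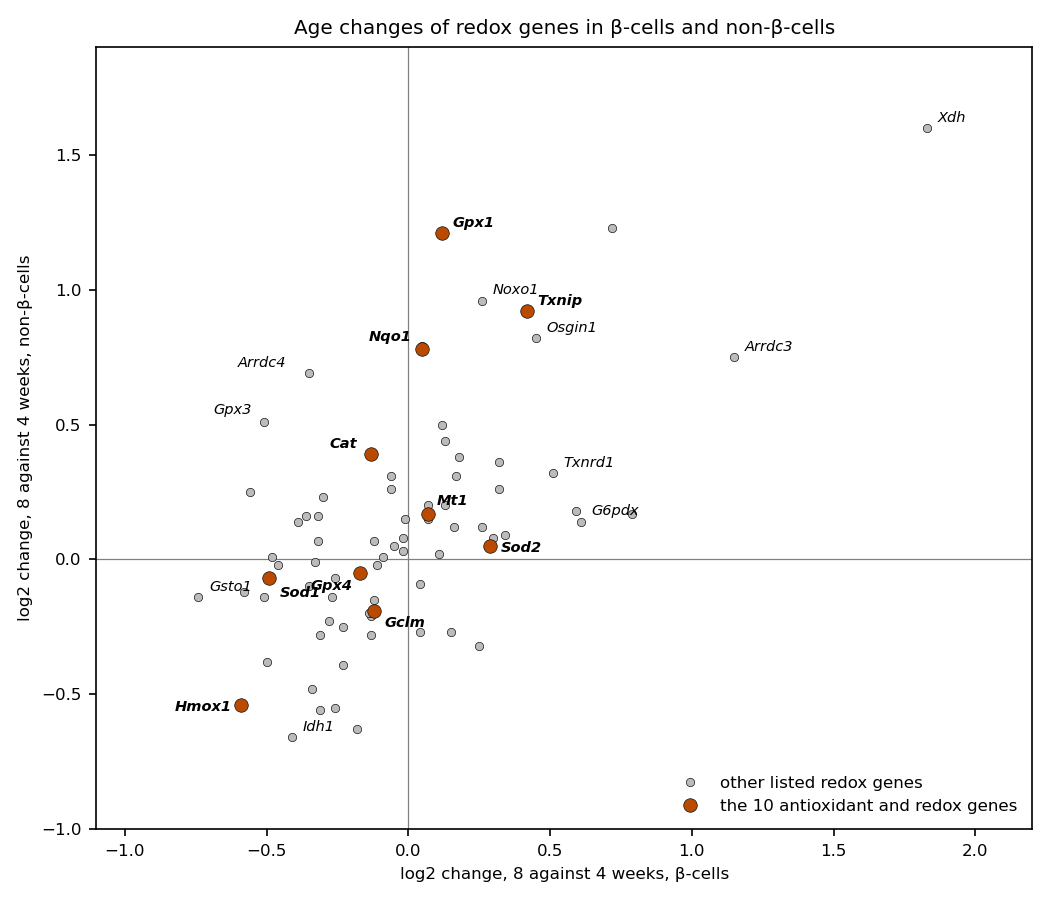
Log2 change from 4 to 8 weeks in β-cells (horizontal) against non-β-cells (vertical) for the 10 genes (large points) and 68 other listed redox genes with a mean log2 CPM of at least 2 (small points). Hmox1 lies below 0 on both axes at -0.59 and -0.54, Xdh at 1.83 and 1.60, and Gpx1 at 0.12 in β-cells against 1.21 in non-β-cells.

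Over all lists 95 of 114 genes were tested. With age 20 were called in β-cells, 11 higher and 9 lower, which is 21.1% of those tested, and 25 in non-β-cells, 20 higher and 5 lower, or 26.3%. The shares of all tested genes were 17.9% and 16.4%. Between the fractions 56 were called at 4 weeks (58.9%, of which 36 were higher in β-cells) and 60 at 8 weeks (63.2%, of which 35 were higher), and 3 in the interaction (3.16%), where all tested genes gave 48.5%, 49.2% and 5.13%. These lists include the 10 genes.

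Patterns over the 12 samples were compared with those of 10162 genes with a symbol and a mean log2 CPM of at least 3, as a description, since the points share the 4 groups. Mt1 was most like Mt2 (Pearson r = 0.997) and Ociad1 (0.995), and Txnip most like the immediate early genes Zfp36 and Npas4 (both 0.997). Hmox1 was most like Ppp1r1a and Rtn4 (both 0.996), Gpx4 like Guk1 (0.984) and Hagh (0.983), Sod2 like Gm10184 (0.982) and Scg2 (0.976), and Cat like Dlgap1 (0.981) and Pard3b (0.959). The closest genes were less alike for Sod1 (Nsmce4a, 0.957, and Sugt1, 0.948), Gclm (Dmac1, 0.956, and Tsfm, 0.947), Gpx1 (Kptn, 0.945, and Sft2d1, 0.927) and Nqo1 (Cryzl2, 0.910, and Tjp3, 0.909).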

How the data were processed

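Total RNA of 12 samples was made into libraries with a Takara kit that keeps strand. By the paper's methods and the submitters' processing notes, the authors filtered reads with fastp and quantified transcripts of Ensembl release 98 (GRCm38) with kallisto and tximport; versions and kallisto's strand option are not given in the sources used here. The deposited values are estimated counts per gene from the authors, unscaled, of which 14% to 19.3% per sample were not whole. Antisense pairs (Sod1 with Scaf4, Gclm with Gm17494, Txnip with Gm15441) may therefore share reads.

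Symbols were found for 51916 of 52962 identifiers in GENCODE M21, on the same build, which also gave the coordinates. Counts were rounded, genes with CPM above 1 in at least 3 samples were kept and libraries were scaled by TMM (edgeR 4.0.16). The two-sided limma-voom tests (limma 3.58.1, R 4.3.3) used 1 model with a mean per group, a prior count of 2 for log2 CPM, and Benjamini-Hochberg adjustment over 15598 genes with a threshold of 0.05. The model was also run on simulated counts with known changes. These were drawn independently with the same dispersion for all genes, so the run cannot speak to shared replicate effects or length trends. Depth was 13755106 to 27040652 counts per sample, and intervals are at 95%.

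The 10 genes, the pathway and marker lists and the alternatives were chosen with earlier results of these data known. Besides the 10 genes, listed genes are named where called with age or in the interaction, at a mean log2 CPM of at least 2 and without overlap, up to 4 per list and comparison; for each of the 10, the 2 genes with the highest correlation are named. Sod3, Ccs, Gpx8, Gclc, Nfe2l2, Mt3, Arrdc2, Slc30a1, Slc30a8, Nos2, Nos3, Cyba, Cybb and the marker genes fall outside this rule and were chosen after their values were seen.

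Replicate numbers come from the labels. Pairing was checked by correlating deviations from group means over 10280 genes with a mean log2 CPM of at least 3. At 4 weeks β and non-β samples of the same number correlated at 0.29, 0.43 and 0.67 (0.08, 0.13 and 0.31 over all genes). A fit with samples paired by number is therefore given beside the main one. The main model held only the group means and treated all 12 samples as independent. β-cell samples 1 and 2 correlated as well with the other of non-β samples 1 and 2 (0.26 and 0.43), so the pairing rests mainly on sample 3. At 8 weeks the values were 0.12, 0.16 and -0.07. No samples of a group agreed within counting noise. The alternatives tried were DESeq2 1.42.0, the quasi-likelihood test of edgeR, other scalings, no filter, sample weights, fewer groups in the model, the replicate block and leaving out samples.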

Additional observations from a re-analysis of the deposited data

Results flagged for a closer look

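By the limma-voom interaction test 3 listed redox genes changed differently with age in β-cells and non-β-cells, and none is among the 10 genes. That is 3.16% of the 95 tested list genes, below the 5.13% of all tested genes. Gpx3 had an interaction of -1.02 (adjusted p = 0.02), lower with age in β-cells and higher in non-β-cells. Arrdc4 had -1.04 (adjusted p = 0.00291), with 22.1 ± 0.909 and 17.5 ± 2.41 CPM (SD, n = 3) in β-cells at 4 and 8 weeks and 40.8 ± 2.83 and 65.4 ± 2.9 in non-β-cells. Mafk had -0.53 (adjusted p = 0.0281), with 80.5 ± 4.44 and 65.5 ± 2.58 CPM in β-cells and 97.5 ± 5.21 and 114 ± 2.78 in non-β-cells. The Gpx3 and Mafk interactions were each lost in 6 of 12 fits with a sample left out, and that of Arrdc4 was called in all 12.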

How the results depend on the processing

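Of 20 calls of the 10 genes, 279 of 313 values under alternatives were still called and 0 changed sign. Of all 840 values of the 10 genes 741 kept direction and side of the threshold, and for those that did not the cause was not tested. The 2 calls with age in β-cells became 1 without a filter and with the replicate block (Txnip lost) and 4 with sample weights (Sod1 and Sod2 added). They were 3 by DESeq2 (Sod1 added), without both 4-week samples numbered 3 and with the transcript length trend removed (Sod2 added), and 1 to 2 with a sample left out. The 0 calls in the interaction became 2 by DESeq2 and with the replicate block (Gpx1 and Txnip), 3 with sample weights (also Sod2), 1 with total counts only, without both 4-week samples numbered 3 and with the transcript length trend removed (Gpx1), and 0 to 2 with a sample left out. The edgeR test gave 0. The length alternative was chosen after seeing the data. Pairing by the replicate block also called all 10 genes between the fractions at 4 weeks (7 without it). It brought in Gpx4 at 8 weeks (adjusted p = 0.00172), an age at which no pairing was found. For the age comparisons the block was a different one, which joined 4-week and 8-week pools of the same number. Those correlated at 0.13, -0.03 and 0.07 in β-cells and 0.28, -0.07 and 0.35 in non-β-cells, and the labels name no link between them. With that block Nqo1 was lost with age in non-β-cells (adjusted p = 0.0682). Over all genes the pairing of the fractions by number moved the calls between them at 4 weeks from 7570 to 9158, and those in the interaction from 800 to 2080. Called β-cell age genes rose from 2799 to 5382 with sample weights and fell to 1695 with a sample left out.

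Reversals were among uncalled values. With age in non-β-cells Sod1 was 0.07 with sample weights and without both samples numbered 3 (-0.17 to 0.07 with a sample left out), and Gpx4 0.16 and 0.09 (-0.21 to 0.17). Between the fractions at 8 weeks Sod1 was 0.04 with the length trend removed (-0.13 to 0.04) and Nqo1 0.05 with sample weights (-0.15 to 0.14). The Mt1 interaction was 0.01 without both samples numbered 3. With a sample left out, age values in β-cells were -0.03 to 0.30 for Gpx1, -0.08 to 0.17 for Nqo1 and -0.06 to 0.28 for Mt1, Sod2 in non-β-cells was -0.04 to 0.10, and interactions were -0.37 to 0.05 for Gpx4, -0.13 to 0.03 for Hmox1 and -0.28 to 0.11 for Mt1. The effect of depth was not tested.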
